A study of Mus musculus with 8 samples.

Results

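Nptx1, Nptx2 and Homer1 encode 3 proteins of the excitatory synapse whose transcripts were measured in visual cortex of mice with 1 eye removed. They are 3 of 8251 genes with a symbol of their own on the array, and were taken as every probe set that the platform annotation pairs with 1 of these symbols alone. This gave 4 probe sets of 12488 on the array: 1 for Nptx2, 1 for Nptx1 and 2 for Homer1, which are called brighter and dimmer by their mean signal. The mice were wild-type C57Bl6, lost 1 eye at postnatal day 20 and were killed 4 days later, at day 24. Deprived cortex lay opposite the removed eye and non-deprived cortex on its own side, so both groups came from operated animals, and no unoperated cortex was analysed here. Each group had 4 arrays, and the labels number them 1 to 4 on both sides. Because the series text mentions pooled samples while the labels mention 4 mice, it is uncertain whether 1 array stands for 1 animal. The p-values then reflect only how much these samples vary, part of which may be technical.

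Neuronal pentraxins are secreted proteins that gather AMPA-type glutamate receptors at excitatory synapses. Nptx1 is made by many neurons without strong stimulation, whereas Nptx2, also known as Narp, was found as a gene that neurons switch on with activity, and both can assemble with the membrane-bound pentraxin receptor Nptxr. Homer1 encodes scaffold proteins of the postsynaptic density. Its long forms join group I metabotropic glutamate receptors to inositol trisphosphate receptors and Shank proteins, and its short form, Homer1a, is induced by activity and lacks the coiled coil through which the long forms pair. The annotation does not say which Homer1 transcript either probe set reads.

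Promoter sequence was looked up in RefSeq for the GRCm38.p6 build, where 1 of the 3 genes matched: Homer1, with 2 annotated starts. The 250 bases before each start are shown for Homer1 only, as Nptx1 and Nptx2 had no match. Activity acts on many promoters through the factor CREB. Capitals mark TGACG, the core of the CREB element.
Homer1 upstream start, chr13:93303507-93303756, plus strand: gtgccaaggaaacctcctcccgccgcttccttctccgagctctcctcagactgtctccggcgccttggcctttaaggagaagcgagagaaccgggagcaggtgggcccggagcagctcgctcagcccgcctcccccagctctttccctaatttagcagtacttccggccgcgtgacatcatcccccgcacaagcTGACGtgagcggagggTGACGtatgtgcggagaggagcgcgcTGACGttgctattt
Homer1 downstream start, chr13:93307784-93308033, plus strand: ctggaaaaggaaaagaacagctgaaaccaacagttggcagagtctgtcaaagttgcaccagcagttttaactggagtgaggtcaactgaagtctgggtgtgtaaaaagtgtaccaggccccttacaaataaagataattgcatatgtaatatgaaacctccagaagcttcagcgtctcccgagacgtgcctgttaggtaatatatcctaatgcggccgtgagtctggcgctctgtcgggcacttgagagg
The window of the upstream start holds 3 copies of TGACG, beginning 56, 40 and 14 bases before the start, and that of the downstream start holds 0. Both strands were searched. Of 32851 promoter windows of this length, 17.8% hold at least 1 copy and 0.688%, or 226 windows, hold 3 or more. Neither window holds the full element TGACGTCA (1.55% of windows), which contains the core, nor TGANTCA, the AP-1 element (6.75%), nor the Egr element GCGTGGGCG (0.54%). These matches describe the letters in the windows, and the arrays measured transcripts, not promoters.

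Values are MAS5 signals on a linear scale, each array rescaled to a common trimmed mean. Arrays had median signals of 182 to 209, and their number limits the precision. Differences were tested with limma on log2(signal + 15.3), deprived minus non-deprived, over the 7453 probe sets whose mean lay above a signal of about 110, with a Benjamini-Hochberg adjusted p under 0.05 as the threshold. Among all of them 0 probe sets passed, which is 0% called, and 2.67% had an unadjusted p under 0.05 (199 probe sets). In the fit that blocks on the replicate number, 0 passed and 7.03% had an unadjusted p under 0.05 (524). Nptx2, Nptx1 and the brighter Homer1 probe set were among those tested, while the dimmer Homer1 probe set lay below the limit and takes its difference from the same fit without a filter, with no call. Of the general and excitatory neuron markers, all 8 on the array were above the limit. This cannot tell visual cortex from other brain regions, as the 4 thalamus markers on the array were above it too.

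Nptx2 had lower values in deprived cortex. Its signal in non-deprived arrays 1 to 4 was 645, 817, 1016 and 902, and in deprived arrays 1 to 4 it was 377, 588, 640.1 and 630.0. The groups did not overlap, but only just: the lowest non-deprived array, at 644.5, and the highest deprived array, at 640.1, differed by far less than the spread within either group. Of all probe sets tested, 0.805% had every deprived array below every non-deprived one. The mean was 845 ± 157 without deprivation and 559 ± 123 with it (SD, n = 4 arrays a side). In such tissue samples fewer cells of a type and less RNA per cell cannot be told apart.

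On the log2 scale the difference of Nptx2 was -0.59 ± 0.20 (SE), with a 95% interval of -1.03 to -0.16, which is a fold of 0.662 with an interval of 0.490 to 0.896. It did not pass the threshold over all probe sets, with a limma adjusted p of 0.995 and an unadjusted p of 0.0118. That p ranked 50 among 7453, and 1.22% of probe sets were lower with an unadjusted p under 0.05. An exact two-sided permutation test over the 8 arrays gave p = 0.0286, the smallest that 70 assignments allow. Nptx2 was lower in the deprived array of 4 of 4 same-numbered pairs, which held for 6.92% of probe sets tested.

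The difference of Nptx2 was similar in size from pair to pair. The log2 difference was -0.75 in pair 1, -0.47 in pair 2, -0.65 in pair 3 and -0.51 in pair 4. Pair 1 held the lowest array of each group, so its values were low on both sides while its difference was the largest in size of the 4. With the replicate number as a block the SE narrowed to 0.12, the interval to -0.86 to -0.33 and limma's unadjusted p to 5.26e-04, with an adjusted p of 0.346. Flipping the signs of the 4 pair differences gave an exact p of 0.125, the least that 16 patterns permit.

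Nptx1, the pentraxin that is closest in kind to Nptx2, showed no such ordering. Its signal was 1404, 817, 1388 and 1011 in non-deprived arrays 1 to 4, and 1079.7, 891, 1786 and 741 in deprived arrays 1 to 4. The groups overlapped throughout, and both the highest and the lowest array of all were deprived ones, numbered 3 and 4. The means were 1155 ± 289 and 1125 ± 462 (SD, n = 4). The log2 difference was -0.08 ± 0.26 (SE), with an interval of -0.65 to 0.49 (a fold of 0.637 to 1.40), a limma unadjusted p of 0.757 and an adjusted p of 0.995. Its interval includes the difference found for Nptx2, so these arrays do not show that Nptx1 stayed level. Pairs 1 and 4 were lower by -0.37 and -0.44, and pairs 2 and 3 higher by 0.12 and 0.36. The sign turned with single arrays: leaving out 1 array gave 0.022 for non-deprived replicate 1, 0.0012 for deprived replicate 2, 0.017 for non-deprived replicate 3 and 0.088 for deprived replicate 4.

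**Figure D1:**
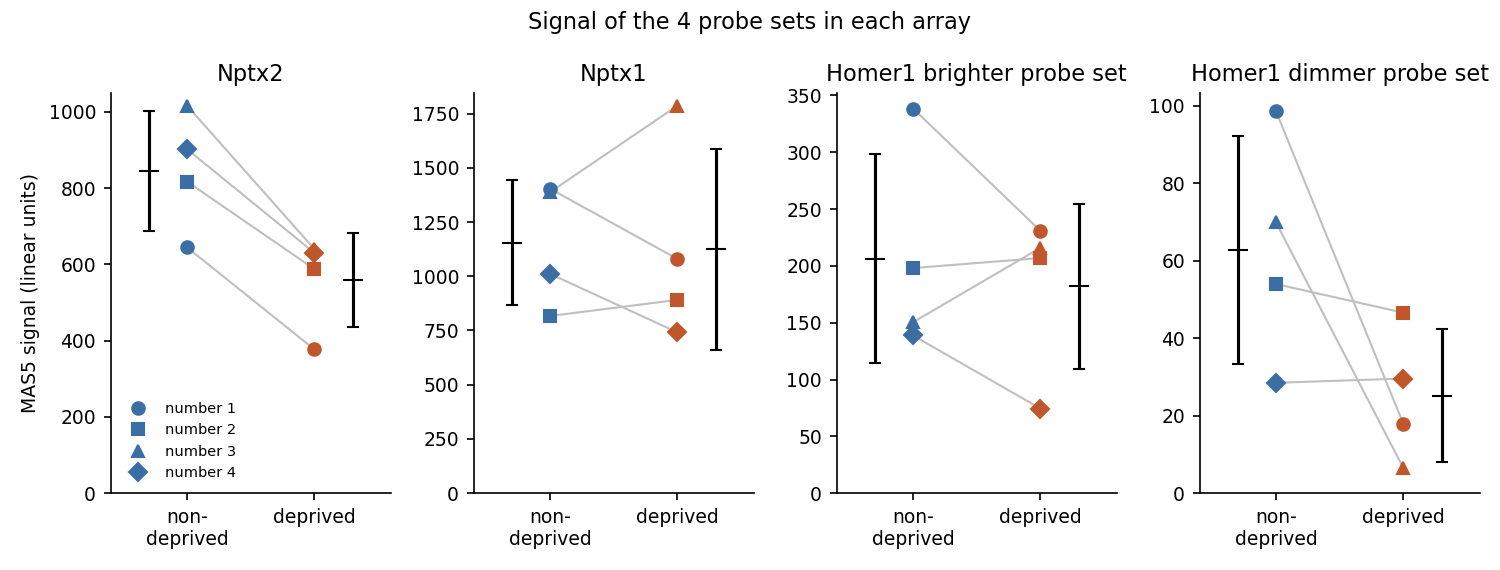
Signal (vertical axis, linear MAS5 units from 0, a separate scale for each panel) of Nptx2, Nptx1 and both Homer1 probe sets in the 4 non-deprived and 4 deprived arrays. Points are arrays, marker shapes give the replicate number, grey lines join arrays of the same number, and bars beside the points give the mean and SD. The 4 lines of Nptx2 all slope down, from 645 to 1016 in non-deprived to 377 to 640.1 in deprived cortex, and the lines of the other probe sets slope in different directions.

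The brighter Homer1 probe set differed less between groups than it varied within them. It read 339, 198, 150.4 and 139 in non-deprived arrays 1 to 4, and 231, 207, 216 and 74.5 in deprived arrays 1 to 4. In each group 1 array stood apart, non-deprived replicate 1 on the high side and deprived replicate 4 on the low side. The other deprived arrays, at 207 to 231, all lay above the other non-deprived ones, at 139 to 198. The means were 206 ± 91.7 and 182 ± 72.4 (SD, n = 4). Its log2 difference was -0.19 ± 0.36 (SE), with an interval of -0.97 to 0.59, a fold of 0.511 to 1.501, a limma unadjusted p of 0.602 and an adjusted p of 0.995. The pairs split, at -0.52 and -0.78 in pairs 1 and 4 and 0.058 and 0.48 in pairs 2 and 3. Without non-deprived replicate 1 the difference was 0.061, and 0.15 when deprived replicate 4 was left out, so its sign rests on those arrays. This probe set lay above every yeast control probe set of the same array in 8 of 8 arrays. In deprived replicate 4 the margin was small, at 74.5 beside a highest yeast signal of 69.9.

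The dimmer Homer1 probe set had a lower mean in deprived cortex, at signals near the array's floor. It read 98.6, 54.0, 69.9 and 28.5 in non-deprived arrays 1 to 4, and 17.9, 46.6, 6.50 and 29.6 in deprived arrays 1 to 4. The groups overlapped, because non-deprived replicate 4 was lower than deprived replicates 2 and 4. The means were 62.7 ± 29.4 and 25.2 ± 17.1 (SD, n = 4), and the log2 difference was -0.97 ± 0.38 (SE), with an interval of -1.79 to -0.14 in the fit without a filter (limma unadjusted p = 0.0252, adjusted p = 0.974). The exact permutation p was 0.0857. Pairs 1 and 3 carried the difference, at -1.78 and -1.97, against -0.16 in pair 2 and 0.036 in pair 4.

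In most arrays the level of that dimmer probe set lay within that of probe sets with no mouse target. The 4 yeast control probe sets on the arrays had signals of 2.00 to 79.6, and the dimmer Homer1 probe set lay at or below the highest of them in 6 of 8 arrays. The 2 exceptions were both non-deprived and belong to the pairs that carry the difference: replicate 1, at 98.6 beside a highest yeast signal of 49.7, and replicate 3, at 69.9 beside 53.4. Its log2 difference went from -1.45 with a pseudocount of 1 to -0.58 with a pseudocount of 50. The 10th percentile of signal, a measure of the floor, was 13.5 ± 0.718 in the non-deprived arrays against 17.2 ± 2.68 in the deprived ones (SD, n = 4, by exact permutation p = 0.0286). It was 15.0, 16.4, 16.3 and 21.1 in deprived arrays 1 to 4. The part of the floor in the difference of this probe set was not tested.

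**Figure D2:**
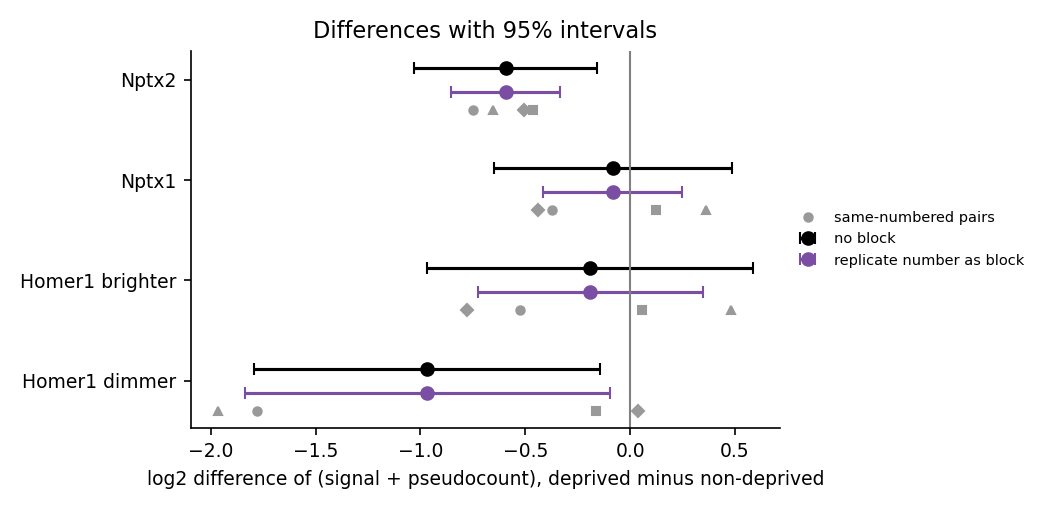
Log2 difference of signal plus pseudocount, deprived minus non-deprived (horizontal axis), for each probe set. Black points with bars give the estimate and 95% interval from limma without a block, purple ones with the replicate number as a block, and grey symbols the differences of the same-numbered pairs (circle 1, square 2, triangle 3, diamond 4). The intervals of Nptx2 and of the dimmer Homer1 probe set lie below 0 in both fits, and those of Nptx1 and the brighter Homer1 probe set span 0. The dimmer probe set takes its intervals from fits without a filter and has no call. None of the 3 tested probe sets passed after adjustment.

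Whether the probe sets differed from each other in their change was tested with the log2 ratio of 2 probe sets within each array, over 4 such ratios. For the Homer1 probe sets, brighter over dimmer, the ratio was higher in deprived cortex by 0.78 ± 0.57 (SE), with an exact permutation p of 0.2 and an adjusted p of 0.4 over the 4 ratios. It was higher in 3 of 4 pairs, and the range over pairs was -0.81 to 2.45. Because the dimmer probe set was mostly within the yeast control range, the size of this difference depends on the pseudocount: it was 1.23 with a pseudocount of 1 and 0.42 with 50 (exact permutation p = 0.229 and 0.257). The single array that lowered this difference most was deprived replicate 4, where the brighter probe set was at its lowest: without that array it was 1.21, with an exact permutation p of 0.0286. That p is the smallest that the remaining arrays allow. Over all 8 arrays a different change of the Homer1 probe sets was not shown, and its size depended on the pseudocount and on single arrays.

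Nptx2 over Nptx1 was lower in deprived cortex by 0.51 log2 units (-0.51 ± 0.40, SE, exact permutation p = 0.2, adjusted p = 0.4). It was lower in 4 of 4 pairs, from -1.01 to -0.068. Flipping the signs of its pair differences gave an exact p of 0.125, the least that 4 pairs permit. The same test gave 0.375 for each of the other ratios. Nptx2 over the brighter Homer1 probe set gave -0.40 ± 0.61 (exact permutation p = 0.514, adjusted p = 0.629) and was lower in 3 of 4 pairs. Nptx1 over the brighter Homer1 probe set gave 0.11 ± 0.39 (exact permutation p = 0.629, adjusted p = 0.629), and its pair range of -0.12 to 0.34 was the narrowest of the 4 ratios. No ratio passed, so a change of Nptx2 apart from Nptx1 or Homer1 is not shown by these arrays.

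**Figure D3:**
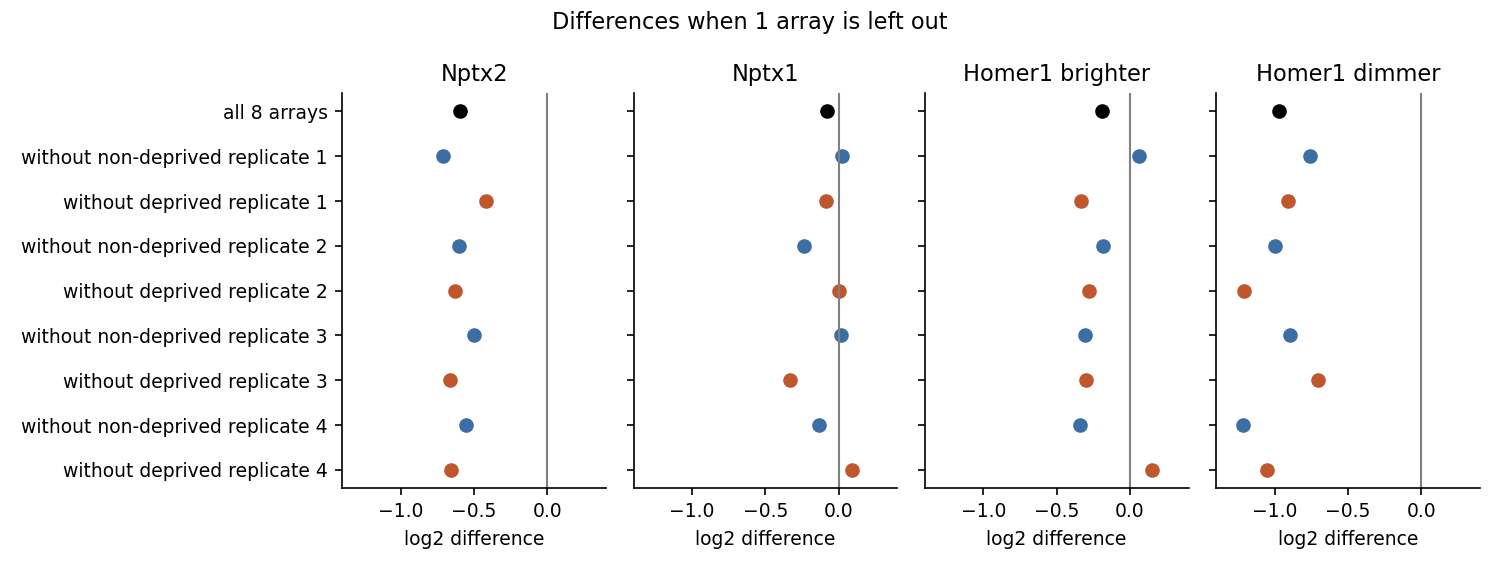
Log2 difference (horizontal axis, deprived minus non-deprived) of each probe set with all 8 arrays (black) and with 1 non-deprived (blue) or 1 deprived array (orange) left out. Nptx2 stays between -0.72 and -0.42, and the dimmer Homer1 probe set between -1.22 and -0.71. Nptx1 and the brighter Homer1 probe set cross 0.

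Array measures of RNA quality and of cell types were set beside these values. The 3' to 5' signal ratio of the actin control probe sets was 1.39 ± 0.179 in the non-deprived arrays against 1.64 ± 0.239 in the deprived ones (SD, n = 4; by exact permutation p = 0.171), and that of Gapdh 0.898 ± 0.0543 and 0.842 ± 0.0345 (exact permutation p = 0.143). When the actin ratio entered the fit, the difference of Nptx2 was -0.47 (limma unadjusted p = 0.0691) and that of the brighter Homer1 probe set -0.81 (unadjusted p = 0.0163, adjusted p = 1.00). With the Gapdh ratio they were -0.64 and -0.41, and Nptx1 went to -0.41. The part of RNA quality in these differences was otherwise not tested. Summed signals of marker lists overlapped between the groups, while some single markers differed within pairs. A sum follows its brightest genes, such as Snap25 among the neuron markers (mean 15122 in non-deprived arrays), and can hide changes of dimmer ones. Neuron markers, 8 of 9 measured, summed to 33421 to 40406 in non-deprived and 33195 to 38483 in deprived arrays, and inhibitory neuron markers, 7 of 7 measured, to 16412 to 19741 and 14771.5 to 18761. Thalamus markers, 4 of 5 measured, summed to 1757 to 2081 and 1828 to 2286, and astrocyte markers, 5 of 6, to 13564 to 18999 and 13863 to 17914. Oligodendrocyte markers, 5 of 7 (Cnp was dim), summed to 16883 to 23774 and 19546 to 20560.3, and microglia markers, 6 of 7 (Aif1 was dim), to 4911 to 5509.7 and 4928 to 5549.7. Endothelium markers, 6 of 6, summed to 1508 to 1891 and 1475 to 1972, and hippocampus markers, 3 of 4 (Prox1 was dim), to 1204 to 1661 and 1009 to 1403. By log2 difference, 6 neuron markers lay below 0 and 2 above, and for inhibitory neurons 5 and 2. For oligodendrocytes these counts were 4 and 1, and for microglia 2 and 4.

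Of the 44 markers above the limit, 0 had an unadjusted p under 0.05 in limma, and 6 did with the replicate block, 4 lower and 2 higher, beside 7.03% of all probe sets. None passed after adjustment (lowest adjusted p = 0.685 with the block). Npy and Sst, peptide genes of inhibitory neurons, had log2 differences of -0.60 ± 0.34 (SE) and -0.49 ± 0.27, similar in size to that of Nptx2, and were lower in 4 of 4 pairs (limma unadjusted p with the block 0.00611 and 0.00633). The rest of that list lay nearer 0: Gad1 had 0.015, Gad2 -0.042, Slc32a1 -0.055, Pvalb 0.031 and Vip -0.16. The list median was -0.055. The endothelial tight junction gene Cldn5 had -0.30 and Wfs1, on the hippocampus list, -0.28, each lower in 4 of 4 pairs, and the groups of Wfs1 did not overlap. The astrocyte gap junction gene Gja1 had 0.23 and the thalamus marker Tcf7l2 0.32, each higher in 4 of 4 pairs. Other genes of these lists went either way. Of the endothelium genes above the limit 1 lay below 0 and 5 above, and of the hippocampus genes 1 and 2. For astrocytes these counts were 3 and 2, and for thalamus 1 and 3. Of all probe sets tested, 6.92% were lower in 4 of 4 pairs and 0.805% did not overlap with deprived lower. The share higher in 4 of 4 pairs is not given here. The part of these markers in the difference of Nptx2 was not tested.

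Pentraxin relatives and partners of the AMPA receptor were counted next. Of 17 listed genes 13 had a probe set and 8 were above the limit, of which 6 lay below 0 and 2 above, with 0 passing in either direction. Their median log2 difference was -0.11, beside 0.024 over all probe sets tested. Cacng2, which encodes the AMPA receptor auxiliary subunit stargazin, was at 905 ± 127 without deprivation and 716 ± 31.9 with it (SD, n = 4), a log2 difference of -0.32 ± 0.14 (SE, limma unadjusted p = 0.0432, adjusted p = 0.995). It was lower in 4 of 4 pairs, though its groups overlapped. Pick1, a PDZ protein that binds AMPA receptor tails, had -0.22 ± 0.21, and the AMPA receptor subunit gene Gria3 -0.19 ± 0.18. Above 0 lay Dlg1, the SAP97 scaffold gene, at 0.14 ± 0.13, and the subunit gene Gria2 at 0.033 ± 0.13. The pentraxin receptor Nptxr was not analysed here, and the pentraxin genes Crp, Apcs and Ptx3 were below the limit.

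In the Homer family and the proteins that Homer binds, 0 genes passed, and 0 had an unadjusted p under 0.05 in limma with or without the block. Of 23 listed genes 11 had a probe set and 10 were above the limit, 3 below 0 and 7 above, where 45.1% of all probe sets tested lay below 0. Their median was 0.073, beside 0.024 over all. Homer3 had 196 ± 27.2 and 185 ± 75.8 (SD, n = 4), a log2 difference of -0.14 ± 0.25 (SE), and Homer2 had 0.13 ± 0.27. Gnaq, the G protein subunit that couples group I metabotropic receptors to phospholipase C, had -0.16 ± 0.36, and Itpr2, an inositol trisphosphate receptor, -0.0039 ± 0.33. Plcb1, the phospholipase C next in that pathway, had 0.20 ± 0.15 and was higher in 4 of 4 pairs (limma unadjusted p = 0.206, adjusted p = 0.995). The share of all probe sets higher in 4 of 4 pairs is not given here. The ryanodine receptor genes Ryr2 and Ryr3 had 0.21 ± 0.27 and 0.12 ± 0.17.

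Other effector genes that neurons switch on with activity contained larger differences, of the size seen for Nptx2. This list was made with earlier results of these samples known, so its direction is not independent evidence. Of 24 listed genes 17 had a probe set and 15 were above the limit, 11 below 0 and 4 above, with a median of -0.20. None passed, and 5 were lower with an unadjusted p under 0.05 in limma, where 1.22% of all probe sets were. With the replicate block the number was 7, beside 3.65% of all probe sets. The secreted neurotrophin Bdnf had 2016 ± 540.0 and 1112 ± 346 (SD, n = 4), a log2 difference of -0.86 ± 0.23 (SE, limma unadjusted p = 0.00305, adjusted p = 0.995). Gadd45b, which encodes a stress and activity-induced regulator of DNA demethylation, had -0.80 ± 0.25, and the peptide precursor Tac1 -0.61 ± 0.27. Ccn1, a secreted matrix protein gene, had -0.57 ± 0.25, and Rgs2, an inhibitor of Gq signalling, -0.45 ± 0.19. Each of these 5, picked for the smallest p, was lower in 4 of 4 pairs, as were Nptx2 and 6.92% of all probe sets tested. The 4 genes above 0 were Plk2 at 0.21, Plat at 0.14, Rasgrp1 at 0.092 and Sgk1 at 0.088.

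**Figure D4:**
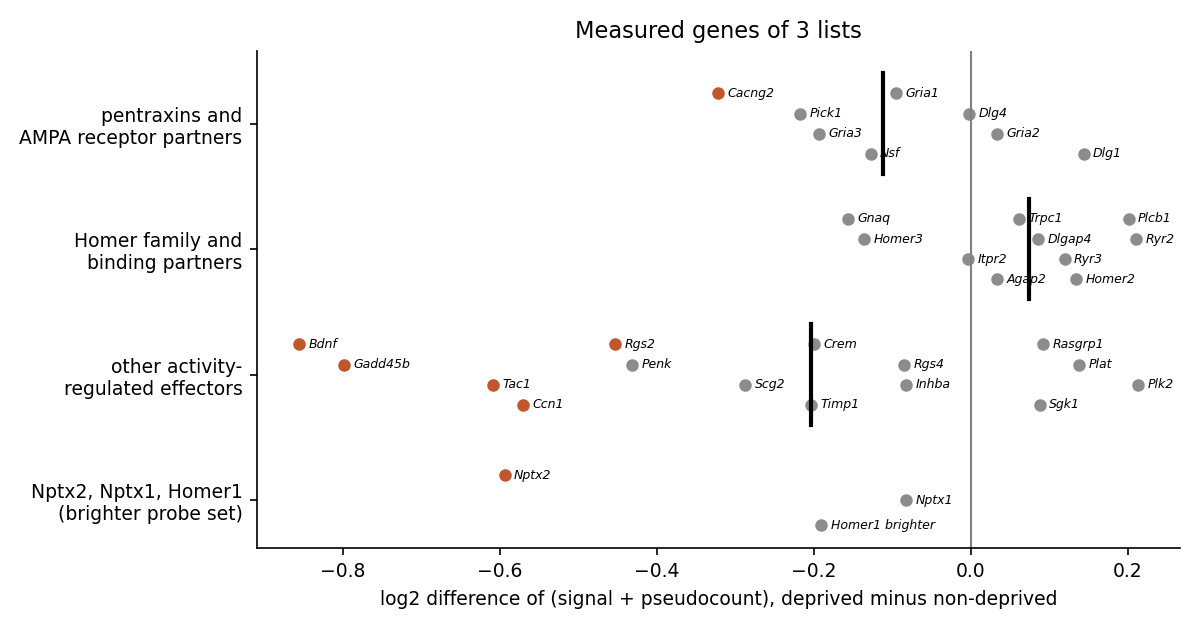
Log2 difference (horizontal axis, deprived minus non-deprived) of each gene above the signal limit in 3 lists and of Nptx2, Nptx1 and the brighter Homer1 probe set. Orange points have an unadjusted limma p under 0.05 and grey points do not, black bars are list medians (-0.11, 0.073 and -0.20 from the top), and vertical offsets only separate labels. Nptx2 lies among Bdnf, Gadd45b, Tac1, Ccn1 and Rgs2, and no gene shown passed after adjustment.

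The genes whose log2 values followed each member most closely over the 8 arrays were found by Pearson's r among 5672 genes, as a description. Arrays of the same number deviated together, so the 8 are not independent, and the highest of many values of r is high by selection. For Nptx2 they were Tsnax (r = 0.987), which encodes the RNA-binding protein translin-associated factor X, the copper transporter Slc31a1 (0.957), the cell cycle inhibitor Cdkn1a (0.942) and 2610301B20Rik (0.892). After the group means were taken out, r was 0.972, 0.909, 0.878 and 0.926. Of these, Cdkn1a had a log2 difference of -0.61 and the others -0.13 to -0.18, so the likeness came largely from variation within the groups.

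For Nptx1 the closest were the Wnt pathway gene Apc (r = 0.95), the BMP antagonist Nog (0.941), the neurturin receptor Gfra2 (0.935) and Nsf (0.931), the ATPase that takes SNARE complexes apart and also binds AMPA receptors. For the brighter Homer1 probe set they were the chromatin remodeller Smarca5 (0.982), the dystrophin complex gene Sspn (0.973), Gpr137b-ps (0.964) and the RNA-binding protein gene Tardbp (0.957). None of the 12 genes was named for more than 1 member, and their log2 differences ranged from -0.61 for Cdkn1a to 0.0064 for Apc.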

How the data were processed

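RNA from visual cortex was read on 1-colour short-oligonucleotide arrays, and the authors deposited 1 linear signal intensity for each probe set, computed with MAS5 per the submitters' processing notes. Its version and settings are not stated in these sources. The table held 12488 probe sets in 8 sample columns, with 0 columns left unused. Arrays were brought to 1 common 2% trimmed mean (about 500.3 as deposited), which changed the values by almost nothing, and 66 control probe sets were removed. The pseudocount of 15.3 was set at the 10th percentile of signal. Fold changes are on the log2(signal + pseudocount) scale, where those of dim genes come out too small. Probe sets above the 40th percentile of mean log2 value were kept.

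Of the probe sets, 10833 had 1 symbol, 396 several and 1193 none. Symbols of 10817 were updated through Entrez identifiers to GRCm38.p6, which was used for names and promoter sequence. A gene of a list was represented by its brightest probe set.

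Tests used R 4.3.3 with limma 3.58.1 (lmFit, then eBayes with a trend on intensity; two-sided, with Benjamini-Hochberg adjustment over all kept probe sets) and exact two-sided permutation over arrays. The scripts were tested on simulated data. Figures used matplotlib 3.10.9 in Python 3.11.15. Labels number the arrays without tying a number to a mouse. Deviations from group means correlated at 0.16 to 0.42 in the 4 same-numbered pairs and at -0.27 to 0.12 between other arrays. All 4 exceeded the limit of 0.1, so same-numbered arrays were also compared as pairs and with the replicate number as a block. The main limma fit, the permutation tests over arrays and the ratio tests were unpaired.

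The members and lists were chosen with earlier results of these data known. Named were all member probe sets, up to 3 genes per direction with the smallest p in the pentraxin and Homer lists, the 5 smallest in the effector list, and the 4 genes most like each member. Homer2, the effector genes above 0, the single markers Npy, Sst, Cldn5, Wfs1, Gja1 and Tcf7l2 and the rest of the inhibitory neuron list were named after their values were seen. Alternatives covered the pseudocount, filter, scaling, block, array weights, intensity trend, RNA-quality covariates and each array or pair left out.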

Additional observations from a re-analysis of the deposited data

Results flagged for a closer look

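In 3 of 48 groups of 4 arrays examined, 1 array stood far from the other 3, where chance flags about 1 in 20 groups (2.4 here). Divided by the whole range of the group, the gap was 0.847 for the brighter Homer1 probe set in deprived cortex, set by deprived replicate 4 at 74.5. It was 0.871 for Homer3 in deprived cortex, set by deprived replicate 2, and 0.904 for Gnaq in non-deprived cortex, set by non-deprived replicate 1.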

How the results depend on the processing

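Nptx2 kept its direction and did not pass after adjustment in 24 of 24 alternatives, from -0.72 without non-deprived replicate 1 to -0.42 without deprived replicate 1, with a lowest adjusted p in limma of 0.346 (the replicate block) and unadjusted p from 5.26e-04 to 0.0691. The random replicate block gave an adjusted p of 0.361. With arrays or pairs left out the direction of Nptx2 could not turn, because its groups did not overlap. The filter, block and intensity trend settings leave the difference of any probe set unchanged, so they test only the p-value. The dimmer Homer1 probe set kept its direction in 24 of 24, from -1.45 to -0.58, and at -1.22 to -0.71 with 1 array and -1.30 to -0.64 with 1 pair left out. Nptx1 turned in 6 of 24, with -0.33 to 0.088 when 1 array and -0.23 to 0.037 when 1 pair was left out (0.015 without replicate 1, 0.037 without replicate 4). The brighter Homer1 probe set turned in 3 of 24, with -0.34 to 0.15 and -0.41 to 0.0053 (without replicate 4). It was -0.015 with array weights. The cause was not tested. The ratio of brighter over dimmer Homer1 was 1.23 with a pseudocount of 1 and 0.42 with 50, and 0.40 to 1.21 with 1 array left out, Nptx2 over Nptx1 -0.75 to -0.33, Nptx2 over brighter Homer1 -0.81 to -0.089, and Nptx1 over brighter Homer1 -0.065 to 0.32. The count passing over the whole table was 0 in all 24 alternatives, and the replicate block changed no call. The number at an unadjusted p under 0.05 was 199 in the main setting. It ranged from 134 without non-deprived replicate 4 to 432 without deprived replicate 4 (316 if deprived replicate 1 was left out instead), and was 368 with array weights, 491 without a filter and 535 with the random block. Signals near those of the yeast controls limit what the dimmer Homer1 probe set can show.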

Other observations

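Genes of the lists that the signal limit left out are given as values, with no call, and were picked after their values were seen. Ptgs2, the activity-induced cyclooxygenase of excitatory neurons, went from 141 ± 39.6 without deprivation to 69.5 ± 18.9 with it (SD of signal, n = 4), a log2 difference of -0.88 that was lower in 4 of 4 pairs, with groups that did not overlap. Crp, a short pentraxin that the liver secretes, was at 24.9 ± 12.7 and 64.1 ± 14.7, a log2 difference of 1.02 that was higher in 4 of 4 pairs. Its groups did not overlap, and both means lay within the range of the yeast control probe sets, 2.00 to 79.6. Among probe sets above the limit, 0.805% did not overlap with deprived lower, and 6.92% were lower in 4 of 4 pairs. The shares among dim probe sets, and of those higher in deprived cortex, are not given here.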
